A study of Sus scrofa with 6 samples.

Results

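Border-associated macrophages were followed through 8 genes, LYVE1, CD163, MRC1, F13A1, STAB1, SIGLEC1, FOLR2 and MSR1, in cervical spinal cord of the pig. The genes were taken by name, and all 8 had a row in every library, out of 28965 genes in the count tables. The study set 3 wild-type pigs against 3 pigs with a deletion of UBE3A inherited from the mother, all of them males of 140 days, with 1 poly(A) RNA library per animal. UBE3A is an E3 ubiquitin ligase gene, active in neurons mainly from the maternal allele, and the comparison addresses how gene expression differs when that copy is lost. The labels do not describe how the deletion was made or its extent, and the paternal copy is not described as altered. Tissue was whole frozen cord, so neurons, glia, vessels, meninges and nerve root tissue can all contribute to a library.

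Border-associated macrophages are the resident macrophages of the meninges and of the spaces around brain and cord vessels. Microglia, in contrast, lie within the nervous tissue itself. Border-associated macrophages are known for scavenger and lectin receptors that take up proteins, haemoglobin complexes, modified lipoproteins and glycans, and they are supported through the CSF1 receptor, as microglia are. In pigs, CD163 and SIGLEC1 are also known as receptors used by the porcine reproductive and respiratory syndrome virus on macrophages. In a bulk library, fewer cells of a type and less RNA per cell cannot be told apart.

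The 8 genes were selected on their exon read counts in wild type against maternal deletion, with that difference already known, so their genotype values are given as a description and not as a test. Levels are TMM-scaled CPM, read counts made relative to the adjusted size of each library, which correct for depth but not for gene length. Libraries held 17181003 to 21298505 exon reads in wild type and 20294026 to 22492366 in the deletion group. A count of 3 reads, taken as the floor, corresponded to 0.130 to 0.176 CPM across libraries. UBE3A itself ranged from 57.0 to 65.5 CPM in wild type and from 21.4 to 27.1 CPM in the deletion group, so every library carried the level of its label. The cord markers GFAP and SNAP25 were present in every library, with SNAP25 at 4827 reads or more. CHAT, the acetylcholine-synthesising enzyme of motor neurons, had 4 to 42 reads per wild-type library and 90 to 252 per deletion library. Mitochondrially encoded mRNAs took 5.88% of reads in wild-type replicate 3 and 9.01 to 12.4% in the other libraries. Replicate numbers only name the animals.

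LYVE1, CD163, MRC1 and STAB1 separated the genotypes without overlap and were lower in every deletion library than in any wild-type library. FOLR2, which had the highest level of the 8 per length, did not share this pattern and was on average higher in the deletion group. F13A1, SIGLEC1 and MSR1 overlapped between the groups. Of the 8 genes, all tested, 1 passed an adjusted p of 0.05 by edgeR's quasi-likelihood test over all genes, namely LYVE1, where 0.844% of all 14566 tested genes passed in that direction. None passed as higher, where the share over all genes was 0.178%. Deletion libraries lay wholly below wild-type libraries for 4 of the 8 genes, against 11.2% of all tested genes, and wholly above for 0, against 15.2%. The choice of genes used this contrast, so nothing is read from these shares. The median log2 fold change over the 8 genes, deletion over wild type, was -1.38, and over all tested genes it was 0.05.

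**Figure D1:**
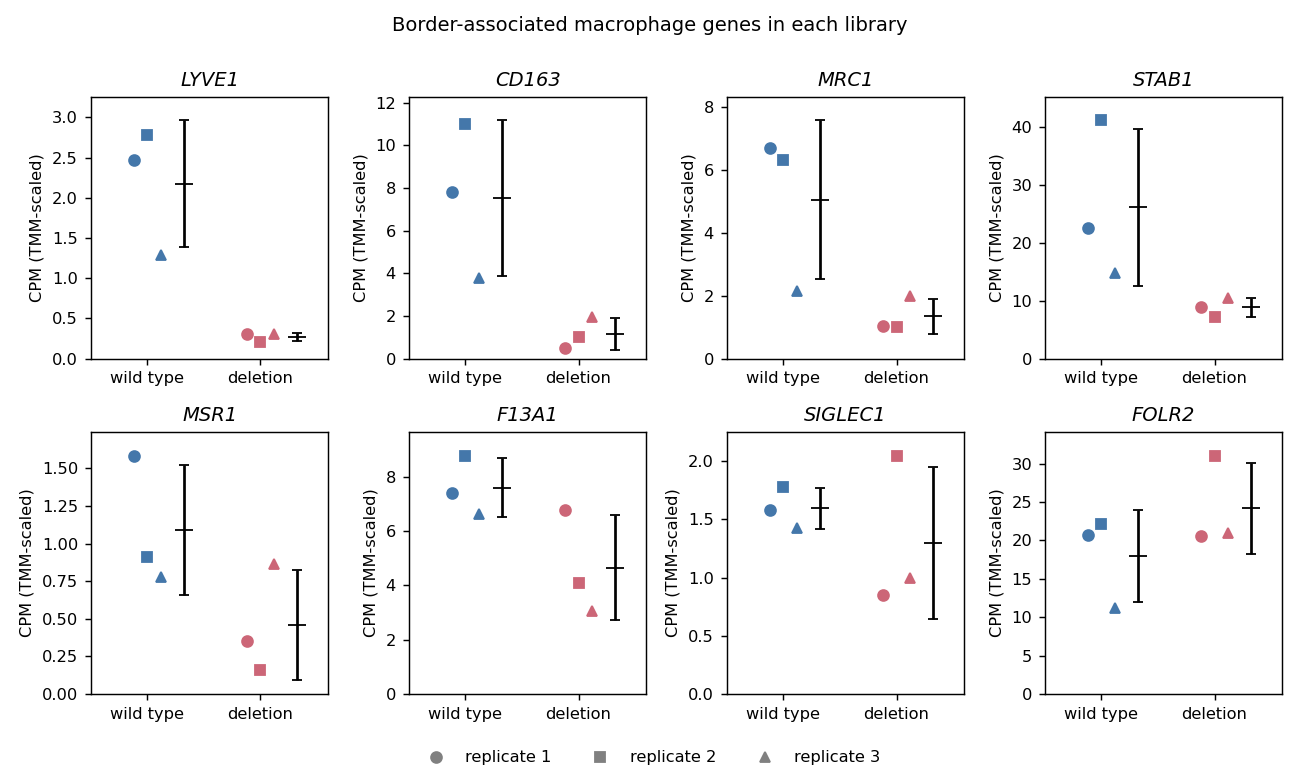
Level of each of the 8 genes in every library, as TMM-scaled CPM on a linear axis that starts at 0, with 1 marker shape per replicate number and the mean ± SD (n = 3) beside each group. LYVE1, CD163, MRC1 and STAB1 show no overlap between wild type and deletion, while FOLR2 reaches its highest level, 31.0 CPM, in deletion replicate 2.

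LYVE1 encodes a hyaluronan receptor of lymphatic endothelium and of a subset of tissue macrophages. Wild-type replicates 1 to 3 held 42, 64 and 28 LYVE1 reads, or 2.46, 2.78 and 1.29 CPM. Deletion replicates 1 to 3 held 6, 4 and 7, or 0.300, 0.210 and 0.302 CPM. The lowest wild-type library stood 4.25 times above the highest deletion library, the widest gap among the 8 genes. Group means were 2.18 ± 0.787 and 0.271 ± 0.0526 CPM (SD, n = 3 each), and the log2 fold change was -2.97 (SE 0.44, 95% interval -3.99 to -1.95). LYVE1 passed the filter on low counts through the wild-type libraries alone, since 0 of its deletion libraries reached the minimum of 0.47 CPM. Counting error is large at this depth: the exact 95% Poisson interval of the 4 reads in deletion replicate 2 ran from 0.0572 to 0.537 CPM. It nevertheless lay below that of the lowest wild-type library, 0.854 to 1.86 CPM. The intervals cover counting error only.

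CD163 is the macrophage scavenger receptor that takes up complexes of haptoglobin and haemoglobin. CPM values in wild-type replicates 1 to 3 were 7.80, 11.0 and 3.76, and those in the deletion replicates were 0.499, 0.997 and 1.94. Wild-type replicate 3 was the lowest of its group and deletion replicate 3 the highest of its own, and the groups still lay 1.94-fold apart at their nearest libraries. The deletion mean of 1.15 ± 0.734 CPM was 15.2% of the wild-type mean of 7.53 ± 3.64 CPM (SD, n = 3 each), with a log2 fold change of -2.69 (SE 0.55). Without deletion replicate 3 the value was -3.38.

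MRC1 encodes the mannose receptor CD206, a lectin that binds glycans on pathogens and on the body's own glycoproteins. The 3 wild-type animals gave 6.69, 6.34 and 2.16 CPM in replicate order, and the 3 deletion animals 1.05, 0.997 and 1.99 CPM. The separation rested on a narrow margin, since wild-type replicate 3 was only 1.09 times as high as deletion replicate 3. Means were 5.06 ± 2.52 and 1.34 ± 0.558 CPM (SD, n = 3 each), with a log2 fold change of -1.90 (SE 0.49).

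STAB1 encodes stabilin-1, a scavenger receptor of macrophages and of sinusoidal and lymphatic endothelium. Wild-type replicates 1 to 3 reached 22.6, 41.2 and 14.7 CPM of STAB1, against 8.99, 7.14 and 10.4 CPM in deletion replicates 1 to 3. Wild-type replicate 2 was far above the other wild-type animals, while the deletion animals lay close together. The nearest libraries of the groups were 1.42-fold apart, and the log2 fold change was -1.56 (SE 0.36).

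FOLR2 encodes the folate receptor beta, a surface marker of resident macrophages. Wild-type replicates 1 to 3 carried 20.7, 22.2 and 11.2 CPM of FOLR2, and deletion replicates 1 to 3 carried 20.6, 31.0 and 21.0 CPM. The groups overlapped, with deletion replicates 1 and 3 between the highest and the lowest wild-type libraries. The means were 18.0 ± 5.97 and 24.2 ± 5.92 CPM (SD, n = 3 each), and the log2 fold change of 0.43 (SE 0.28) had a 95% interval of -0.23 to 1.08. FOLR2 was thus the sole gene of the 8 with a positive value, and it kept that sign under all 15 alternative settings, between 0.11 and 0.59. FOLR1, the related folate receptor alpha, had a log2 fold change of 0.07 (SE 0.13); the sources do not say how reads shared by such relatives were counted.

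F13A1 encodes the A subunit of coagulation factor XIII, which macrophages and platelets make. In replicate order it gave 7.39, 8.77 and 6.61 CPM in the wild-type animals and 6.79, 4.09 and 3.07 CPM in the deletion animals. Deletion replicate 1 lay within the wild-type range and the other deletion libraries below it, and the log2 fold change was -0.71 (SE 0.30). Platelet genes were measured beside it, and 0 of 3 tested passed the threshold, with a median of -0.63. The integrin gene ITGB3, which vessel cells also express, and GP9 gave -2.26 (SE 0.59) and -0.63 (SE 0.23), both without overlap, while ITGA2B gave 0.02 (SE 0.13) at 1309 to 1878 reads per library. PPBP, a platelet chemokine, had 0 to 8 reads per library, TUBB1 had 4 to 11 and GP1BB had none. The part of platelets in the F13A1 level was not tested.

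SIGLEC1 encodes sialoadhesin, a receptor for sialylated glycans. Reads of SIGLEC1 numbered 27, 41 and 31 in wild-type replicates 1 to 3, against 17, 39 and 23 in deletion replicates 1 to 3. Deletion replicate 2, at 2.05 CPM, was the highest of all libraries and deletion replicate 1, at 0.849 CPM, the lowest. The log2 fold change was -0.30 (SE 0.40), and its 95% interval of -1.24 to 0.63 held 0.

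MSR1 encodes the class A scavenger receptor that takes up modified lipoproteins. Only 27, 21 and 17 MSR1 reads were counted in wild-type replicates 1 to 3, against 7, 3 and 20 in deletion replicates 1 to 3. Deletion replicate 3 lay among the wild-type libraries, and the deletion libraries differed 5.49-fold between the highest and the lowest. The log2 fold change of -1.20 (SE 0.61) had a 95% interval of -2.61 to 0.21, and at these counts no direction can be given.

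**Figure D2:**
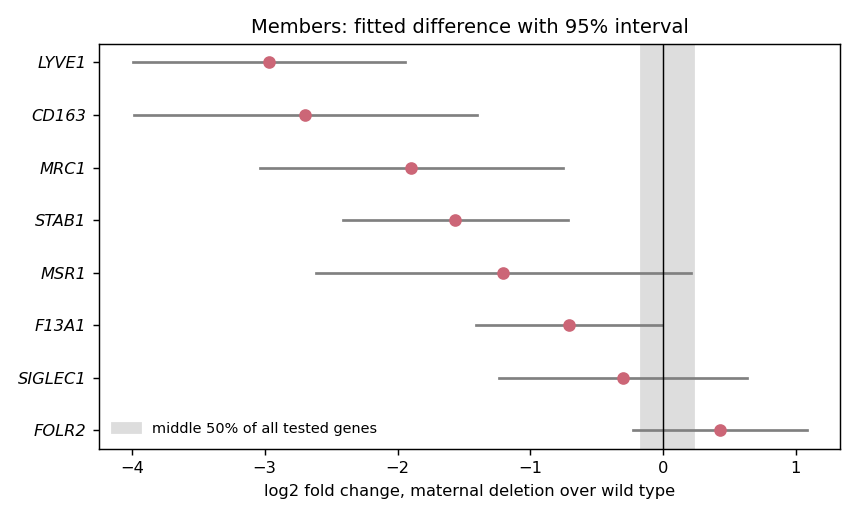
Log2 fold change of each of the 8 genes, maternal deletion over wild type, from the edgeR fit across all genes (points) with 95% intervals (lines); the grey band spans the middle 50% of all tested genes, -0.17 to 0.23. The values run from -2.97 for LYVE1 to 0.43 for FOLR2, and the intervals of SIGLEC1, MSR1 and FOLR2 include 0.

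The authors' deposited table gave the same 4 genes a false discovery rate under 0.05, all lower, where 3.81% of its genes with a rate were lower at that threshold and 3.39% higher. In the authors' deposited table the signed fold changes were -7.73 for LYVE1, -6.43 for CD163, -3.68 for MRC1 and -2.93 for STAB1. The authors' deposited table listed FOLR2 at 1.36 and SIGLEC1 at -1.23, with false discovery rates of 0.434 and 0.907. The table rests on the same 6 animals. DESeq2 also placed 4 of the 8 genes past an adjusted p of 0.05, all lower, where 5.18% of its genes passed as lower and 3.72% as higher.

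The edgeR call of LYVE1 depended on single libraries. It was absent without wild-type replicate 1 or 2 and without deletion replicate 1, 2 or 3, where edgeR's quasi-likelihood test called 0 of the 8 genes. In these fits 4 or 5 of the 8 had an unadjusted p under 0.05, as did 1888 to 2452 of all tested genes. With all libraries 5 of the 8 did, against 20.2% of all tested genes. Without wild-type replicate 3 the test called 4, namely LYVE1, CD163, MRC1 and STAB1, and the calls over all genes also increased, from 123 to 639 lower and from 26 to 120 higher. In each genotype, 1 animal has an ID with the prefix 14 and the others the prefix 15, whose meaning the labels do not state. Within prefix 14 the deletion level over the wild-type level was 0.122 for LYVE1, 0.0640 for CD163, 0.157 for MRC1 and 0.397 for STAB1. Within prefix 15 the ratios of group means for the same genes were 0.126, 0.199, 0.351 and 0.314. The FOLR2 ratio was 0.996 within prefix 14 and 1.56 within prefix 15. With the prefix as a block, edgeR called 0 of the 8 genes and 5 had an unadjusted p under 0.05, as did 2793 of all tested genes.

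Levels of different genes are compared on the deposited TPM scale, which corrects for gene length. In wild type FOLR2 led with 23.0 ± 6.12 TPM (SD, n = 3), and its lowest library, 16.5 TPM, exceeded the highest library of any other member, 8.81 TPM for STAB1. STAB1 with 5.60 ± 2.81 TPM and F13A1 with 5.38 ± 0.736 TPM followed and overlapped each other. CD163, LYVE1 and MRC1 came next with 2.77 ± 1.25, 2.60 ± 0.787 and 2.10 ± 0.913 TPM and overlapped as well. MSR1 with 0.634 ± 0.179 TPM and SIGLEC1 with 0.577 ± 0.0627 TPM were lowest, and every library of either lay below the lowest library of MRC1, 1.05 TPM. In the deletion group FOLR2 stood at 30.0 ± 6.08 TPM and F13A1 at 3.14 ± 1.26 TPM, whereas CD163 and LYVE1, at 0.419 ± 0.288 and 0.316 ± 0.0736 TPM, lay in the range of SIGLEC1 and MSR1, at 0.443 ± 0.204 and 0.267 ± 0.225 TPM. FOLR2 made up 52.1 to 56.8% of the summed TPM of the 8 genes in wild-type libraries and 76.4 to 86.4% in deletion libraries.

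Ratios of genes within a library do not depend on how libraries are scaled. FOLR2 over CD163 was 2.65, 2.01 and 2.96 in the wild-type animals, in replicate order, and 41.2, 31.1 and 10.8 in the deletion animals. The 2 genes, both used as markers of resident macrophages, thus stood in a different proportion in every deletion library than in any wild-type library. Both genes were chosen with the genotype difference known, so their ratio restates the levels given above and adds no separate evidence. FOLR2 over MRC1 ran from 3.09 to 5.17 in wild type and from 10.5 to 31.1 in the deletion group. CD163 over MRC1 was 1.17, 1.74 and 1.74 in wild type and 0.476, 1.00 and 0.978 in the deletion group.

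The 8 genes also varied from animal to animal within a genotype, which the choice of genes did not use. Wild-type replicate 3 had the lowest wild-type level of all 8 genes, and wild-type replicate 2 had the highest of 6. Among deletion animals, replicate 3 was the highest for 5 genes and replicate 2 the lowest for 4. After the mean of each genotype was subtracted from log2 CPM, the 28 pairs of genes had a median Pearson r of 0.42 over the 6 libraries, with 19 pairs above 0. The closest pairs were LYVE1 with MRC1 (r = 0.897), LYVE1 with STAB1 (r = 0.896) and CD163 with MRC1 (r = 0.848). SIGLEC1 and MSR1 had the lowest value, r = -0.599, at 17 to 41 and 3 to 27 reads per library. These correlations describe 6 libraries that share their depth and tissue make-up.

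Against the mean of the 8 standardised profiles treated in this way, the 6 most alike of 11760 other named genes at a mean log2 CPM of 1 or more were SLC9A5, TRIM65, SYNPO2, DXO, SCUBE1 and P3H3, with r from 0.996 to 0.999 over 6 libraries. SLC9A5 encodes a sodium-proton exchanger and SYNPO2 an actin-binding protein of muscle. The choice of these 6 genes fixes that they follow the mean profile, not each member. Single members had an r with that profile from 0.106 for F13A1 to 0.936 for LYVE1. SYNPO2 gave 29.5, 38.8 and 12.3 CPM in the wild-type animals, in replicate order, and 4.24, 4.41 and 5.66 CPM in the deletion animals. The log2 fold changes of SYNPO2, P3H3 and SCUBE1 were -2.49 (SE 0.40), -1.32 (SE 0.30) and -1.23 (SE 0.63). SLC9A5, DXO and TRIM65 had values of 0.05 (SE 0.34), 0.02 (SE 0.19) and -0.10 (SE 0.17).

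Genes that macrophages share with microglia had values near 0 in most cases. Of 14 such genes, all tested, 0 passed the edgeR threshold in either direction, and their median log2 fold change was -0.14. CSF1R, the receptor that keeps both cell kinds alive, gave -0.06 (SE 0.11), and the complement gene C1QB gave -0.09 (SE 0.11). CD4, which macrophages as well as T cells carry, gave -1.63 (SE 0.48) at 7 to 31 reads per library, and the lysosomal protein gene CD68 gave -0.51 (SE 0.21). The summed level of the list was 933 to 956 CPM in wild type and 832 to 936 CPM in the deletion group. Of 10 tested homeostatic microglia genes 0 passed, with a median of -0.07; the purinergic receptor gene P2RY12 gave -0.12 (SE 0.17) and the fractalkine receptor gene CX3CR1 0.21 (SE 0.17). OLFML3 and CTSS, which other cells express too, gave -0.63 (SE 0.12) and -0.72 (SE 0.18). Summed microglia levels ran from 431 to 510 CPM in wild type and from 396 to 439 CPM in the deletion group.

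Set against these genes, the 7 members other than FOLR2 summed to 5.37, 7.62 and 3.30% of the shared macrophage genes in wild-type replicates 1 to 3. In deletion replicates 1 to 3 the same share was 2.26, 1.82 and 2.09%, below every wild-type library. STAB1 alone was 1.58 to 4.31% of the shared genes in wild type and 0.830 to 1.11% in the deletion group. FOLR2, the sole member with a positive value, was left out of the sum of 7 after its values were seen. The members were chosen with the genotype difference known, so this share and those below restate their levels and add no separate evidence. With all 8 members the share was 7.58, 9.94 and 4.49% in wild type and 4.74, 5.42 and 4.33% in the deletion group, and the groups overlapped. As a share of the homeostatic microglia genes, all 8 members came to 8.22 to 19.9% in wild type and 9.24 to 11.3% in the deletion group, also with overlap. Without FOLR2 the 7 members came to 6.03 to 15.3% of the microglia genes in wild type and 3.80 to 4.76% in the deletion group, without overlap. Whether the groups overlapped in these 2 shares thus depended on FOLR2. As a share of the meninges and fibroblast genes, all 8 members came to 1.23 to 2.90% in wild type and 2.39 to 3.73% in the deletion group, with overlap. The 7 members without FOLR2 came to 1.31, 2.22 and 0.904% of the same sum in wild type and 1.14, 1.25 and 1.59% in the deletion group. The groups overlapped there too. CD163 alone was 0.111 to 0.336% of that sum in wild type and 0.0303 to 0.158% in the deletion group, again with overlap. LYVE1 was 0.0378 to 0.0847% of it in wild type and 0.0168 to 0.0245% in the deletion group, without overlap. CLDN11, a gene of that list, held 442 to 1053 CPM in wild type and 780 to 1026 CPM in the deletion group. It made up most of the sum in the deletion libraries. The shares of the meninges and fibroblast genes, and whether the groups overlap in them, therefore depend on CLDN11.

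**Figure D3:**
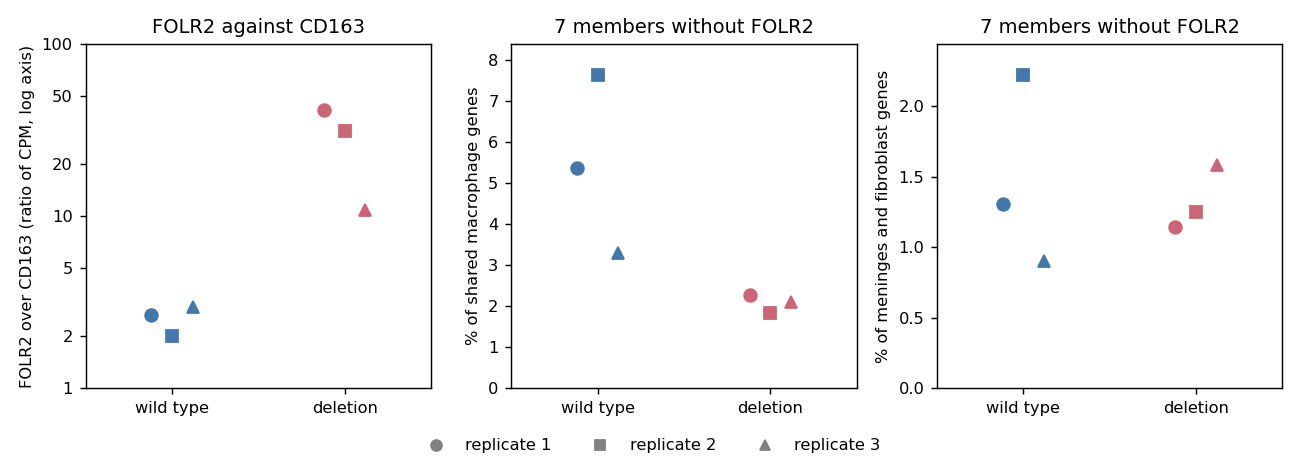
Ratios within each library, with 1 marker shape per replicate number: FOLR2 over CD163 (left, log axis), and the summed CPM of the 7 members without FOLR2 as a percent of the shared macrophage and microglia genes (middle) and of the meninges and fibroblast genes (right). The groups stand apart in the left panel and in the middle panel, where with FOLR2 included they overlap (4.49 to 9.94% against 4.33 to 5.42%), and in the right panel wild type spans 0.904 to 2.22% around the deletion libraries at 1.14 to 1.59%. The left panel restates the levels of 2 genes chosen with the genotype difference known. The middle and right panels use 7 genes so chosen, with FOLR2 left out after its values were seen. The separation in the middle panel therefore adds no separate evidence. The right panel depends on CLDN11, which made up most of the meninges and fibroblast sum in the deletion libraries.

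Other genes known from border-associated macrophages were measured from a separate list. Of 6 that could be tested, 0 passed the edgeR threshold, with a median log2 fold change of -0.58. DAB2, an endocytic adaptor, gave -0.78 (SE 0.17) without overlap of the groups. COLEC12, a scavenger receptor that fibroblasts and endothelium also express, gave -1.20 (SE 0.43), and MS4A7 gave -0.37 (SE 0.19). VSIG4, a complement receptor of resident macrophages, gave -0.17 (SE 0.20). GAS6 was the only 1 of the 6 with a positive value, 0.25 (SE 0.36), at 866 to 2347 reads per library. TIMD4 had 2 to 14 reads per library, CLEC12A at most 1 and HPGDS none, so these 3 were not tested.

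Growth factor and lineage genes of macrophages gave 0 calls among 9 tested, with a median of -0.08. MAF, a transcription factor of resident macrophages that other cells express too, gave -0.75 (SE 0.21) without overlap. CSF1 and IL34, the ligands of CSF1R, gave -0.08 (SE 0.15) and -0.03 (SE 0.15), and the lineage factor gene SPI1 gave 0.02 (SE 0.13). None of these passed the threshold.

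Genes related to the cargo of the receptors were measured in 2 lists. Of 8 tested haem and iron handling genes 0 passed and the median was 0.19. HMOX1, FTH1, HP and LRP1 of that list had no row under these names. What follows haemoglobin uptake by CD163 was therefore covered only in part and was not tested. The iron exporter gene SLC40A1 gave -0.59 (SE 0.11) without overlap, while HMOX2, a haem oxygenase, gave 0.37 (SE 0.15) and BLVRA, a biliverdin reductase, 0.16 (SE 0.13). Of 10 tested hyaluronan genes, which make, bind or degrade the ligand of LYVE1, 0 passed and the median was -0.31. CEMIP, which depolymerises hyaluronan, had 537 to 1597 reads per wild-type library and 57 to 356 per deletion library, a log2 fold change of -2.69 (SE 0.78). HAPLN3, a hyaluronan link protein gene, gave -1.64 (SE 0.37), and CD44, the widespread hyaluronan receptor, gave -0.41 (SE 0.22). Relatives of the scavenger, mannose and folate receptors gave 0 calls among 10 tested, with a median of -0.23; MRC2, the endocytic collagen receptor of fibroblasts and a relative of MRC1, gave -0.65 (SE 0.22).

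Blood cells could also carry some of these transcripts. Monocyte and neutrophil genes gave 0 calls among 5 tested, with a median of -1.33, at summed levels of 16.2 to 21.3 CPM in wild type and 18.8 to 19.8 CPM in the deletion group. S100A12, a calcium-binding protein gene of neutrophils, gave -2.82 (SE 0.85) at 1 to 69 reads per library. Red cell genes gave 0 calls among 2 tested, with a median of -1.05, and summed to 31.1 to 194 CPM in wild type and 8.86 to 115 CPM in the deletion group. Dendritic cell genes gave 0 calls among 3 tested, with a median of -0.35.

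LYVE1 and STAB1 are made by lymphatic endothelium as well, so its markers were measured. Of 5 tested genes 0 passed and the median was -0.20. ANGPT2, an angiopoietin gene that blood vessels also express, gave -1.45 (SE 0.39) without overlap, RELN gave -0.57 (SE 0.45) and PDPN gave -0.20 (SE 0.15). FLT4, the receptor of lymphatic growth factors, had 43 to 56 reads per library and gave -0.14 (SE 0.24). CCL21 and MMRN1, which mark lymphatic vessels, had 2 to 7 and 0 to 4 reads per library, at or near the floor. PROX1, which glia express too, gave 0.11 (SE 0.38). The summed level was 98.1 to 140 CPM in wild type and 63.0 to 111 CPM in the deletion group. The part of lymphatic endothelium in the LYVE1 and STAB1 levels was not tested.

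Genes of the tissues in which border-associated macrophages lie were measured last. In the meninges and fibroblast list 7 of 11 tested genes fell and 0 rose, with a median of -2.35, and the summed level was 3280 to 3842 CPM in wild type and 1234 to 1651 CPM in the deletion group. CLDN11, a gene of that list at 0.19 (SE 0.31), held 442 to 1053 CPM of the wild-type sums and 780 to 1026 CPM of the deletion sums. In the smooth muscle and pericyte list 4 of 10 fell, with a median of -2.38 and sums of 544 to 3010 CPM against 209 to 272 CPM. In the peripheral myelin list 1 of 6 fell, with a median of -2.27 and sums of 2641 to 6201 CPM against 986 to 1791 CPM. Blood vessel endothelium gave 0 calls of 9, with a median of -0.81 and sums of 413 to 646 CPM against 284 to 390 CPM. Of these 9 genes 8 had a negative value. Deletion libraries lay wholly below wild-type libraries for 6 of them, against 11.2% of all tested genes. Over all genes edgeR called 0 as lower when wild-type replicate 1, deletion replicate 2 or deletion replicate 3 was left out (2420, 1888 and 2380 genes at an unadjusted p under 0.05), and 9 without wild-type replicate 2 and 5 without deletion replicate 1. The part of these tissues in the lower LYVE1, CD163, MRC1 and STAB1 levels was not tested. Cord parenchyma markers gave 0 calls of 8 and a median of 0.47.

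**Figure D4:**
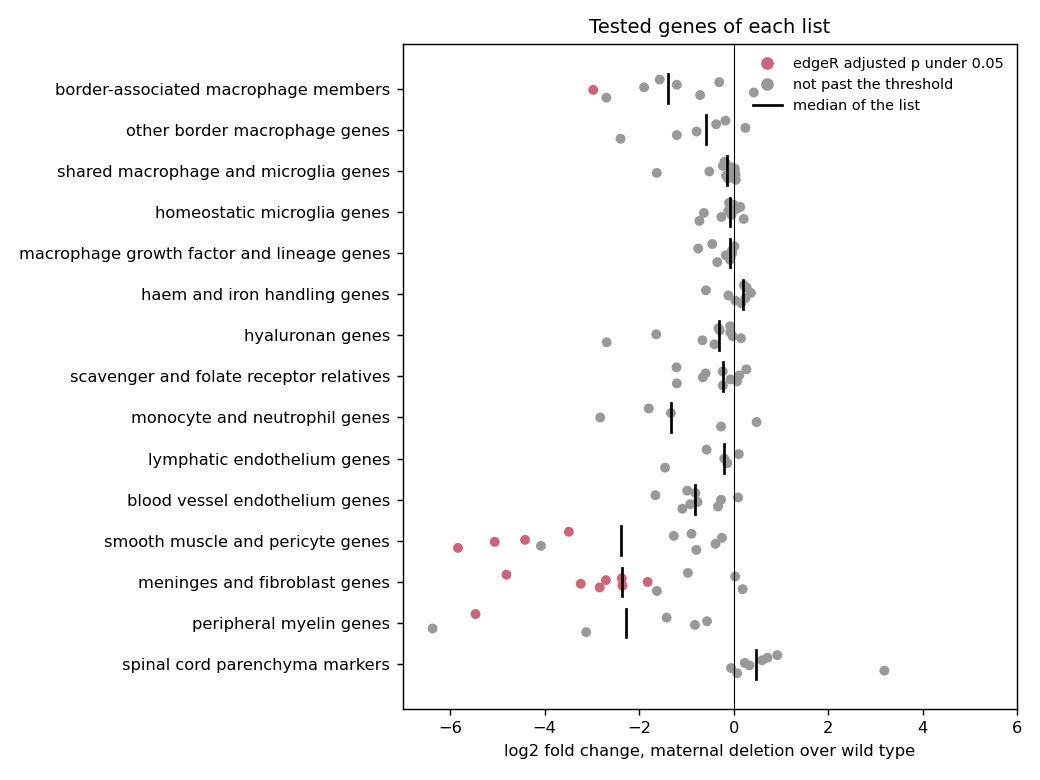
Log2 fold change, maternal deletion over wild type, of each tested gene in 15 lists, in red where the edgeR adjusted p was under 0.05, with the median of each list as a black bar. The 8 members spread from -2.97 to 0.43, the shared macrophage and microglia genes centre on -0.14 and the homeostatic microglia genes on -0.07, and the meninges and fibroblast genes centre on -2.35.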

How the data were processed

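Exon reads per gene were deposited by the authors as a whole-number count for each library, and all tests start from these counts. The authors also deposited TPM, used here to compare genes, and RPKM and a signal column headed CPM, which were not used. The authors' deposited comparison table holds a p-value, a false discovery rate and a score, which is a fold change with a sign. Libraries were poly(A)-selected, stranded and paired-end, per the labels' protocols; the sources used here name no aligner, strand setting of the counting, annotation or build, and coordinates are left out. The labels name separate animals.

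Genes were kept by filterByExpr (14566 of 28965), given TMM factors and tested in R 4.3.3 by edgeR 4.0.16 (quasi-likelihood, robust, Benjamini-Hochberg over all genes, threshold 0.05). Standard errors derive from the quasi-likelihood statistic. The 15 library pairs all differed beyond sampling noise (lowest chi-square over its degrees of freedom 29.7). DESeq2 1.42.0, limma 3.58.1 (voom), other scalings and filters, the ID prefix and leaving out each library were alternatives. From each of 17 other lists up to 4 genes by p were eligible for naming; CCL21, MMRN1, TIMD4, CLEC12A, HPGDS, PPBP, GP1BB, TUBB1, C1QB, CSF1R, P2RY12 and other genes outside this rule were named after their values were seen. Likeness used log2 CPM with 2 prior reads. The members, lists and tests were chosen with earlier results of these data known.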

Additional observations from a re-analysis of the deposited data

How the results depend on the processing

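Of 119 member values under the 15 alternatives, 116 moved by less than the spread between replicates, 3 moved by more and 0 changed sign; MSR1 was removed by the stricter filter. Those 3 were SIGLEC1 at -0.78 without deletion replicate 2, MSR1 at -2.10 without deletion replicate 3 and F13A1 at -1.17 in prefix 15 alone. The median of the members ran from -1.92 to -1.12 when single libraries were left out. The number of members called lower was 4 with DESeq2, 2 with voom, 0 with the prefix as a block, 0 in prefix 15 alone (4 at an unadjusted p under 0.05) and 0 to 4 with single libraries left out. Over all genes, calls lower numbered 123 and were 793 with DESeq2, 344 with voom, 3 with the block and 0 in prefix 15 alone (1608 genes at an unadjusted p under 0.05); calls higher numbered 26 and were 9 with RLE scaling, 6 with total-count scaling, 77 with no filter, 569 with DESeq2, 94 with voom, 0 with the block and 0 in prefix 15 alone. With single libraries left out, lower calls ran from 0 to 639 and higher calls from 0 to 120. The causes were not tested. No paired analysis was possible because the labels give no replicate numbers that groups share; the numbers used here follow accession order. The prefix block above is the nearest fit to one. At 3 to 64 reads per library, LYVE1, SIGLEC1 and MSR1 are limited by counting error.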

Other observations

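CD209 and CD36, both on the list of other border macrophage genes, stood out in a single animal. CD209, a C-type lectin of macrophages and dendritic cells, had 170 reads in wild-type replicate 2 and 0 to 8 reads in the other 5 libraries, and was not tested. CD36, a scavenger receptor for fatty acids and oxidised lipoproteins that endothelium and fat cells also carry, had 681 reads in wild-type replicate 2 and 34 to 62 reads in the others. The same library had the highest STAB1, CD163 and LYVE1 levels of the 6, while its summed microglia level, 476 CPM, lay between those of the other wild-type animals, 431 and 510 CPM.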
